A study of Homo sapiens with 10 samples.

Results

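The genes described here are those that set plasminogen activation and the start of clotting at the surface of glioma cells. They were chosen by name and the rule uses no measured value, but earlier results of these data were known when they were chosen. In all, 7 genes of the 34567 in the table were members. PLAU and PLAT encode the plasminogen activators uPA and tPA, and PLAUR encodes the receptor that holds uPA on the cell surface. SERPINE2, which encodes protease nexin-1, and SERPINB2, which encodes plasminogen activator inhibitor type 2, are inhibitors of these proteases. F3 encodes tissue factor, the cell surface receptor that starts the clotting cascade. THBD encodes thrombomodulin, the receptor through which thrombin activates protein C.

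Plasminogen activators cut plasminogen into plasmin, a protease that degrades fibrin and matrix proteins and activates other proteases. uPA bound to its receptor places this activity at the edge of a moving cell, and serpins end it by trapping the protease in a covalent complex. In glioblastoma this system is known for its part in invasion, and tissue factor for the clotted vessels around necrosis.

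RNA was sequenced from 2 established human glioblastoma lines, SNB19 and U87, both grown in DMEM with 10% fetal bovine serum, to ask how gene expression responds to lowering or raising the homeobox transcription factor MEOX2. SNB19 cells were transiently transfected with a scramble siRNA (NC, n = 3) or with a MEOX2 siRNA (siMEOX2, n = 3), and the labels do not say which of the study's siRNAs was used. U87 cells carried an empty vector lentivirus (EV, n = 2) or a MEOX2 lentivirus (OE, n = 2), and both were puromycin-selected stable lines, so a line cannot be told apart from the construct it carries. The labels do not say whether replicates were separate cultures, and p-values then measure only the spread between these samples, which may be technical.

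The libraries held 12533775 to 16560324 counts. MEOX2 itself was at 6.01, 6.53 and 7.09 FPKM (fragments per kilobase of gene and per unit of depth, as deposited) in NC cells and at 1.38, 1.11 and 1.39 FPKM in siMEOX2 cells. In U87 cells it had 0 and 0 counts with the empty vector and 4999 and 5308 counts with the MEOX2 lentivirus, at least 1910-fold higher against a floor of 3 counts per library. EV replicate 1 stood apart from the other 9 libraries. Its TMM factor, which corrects for composition, was 0.695 against 0.95 to 1.134 elsewhere, and its log2 CPM (counts scaled to library size) correlated with those of EV replicate 2 at r = 0.944, against 0.989 to 0.992 for every other replicate pair. Member values in U87 cells are therefore given with and without each EV library. Of 8 glioma and astrocyte markers, all had counts in SNB19 cells, but S100B only 1 to 5 counts per library, near the floor. In all U87 libraries S100B was at 0 counts and SOX2 at 0 to 3 counts.

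The start sites of these genes are shown because members of the family moved in opposite directions. RefSeq windows on GRCh38.p14 were at hand for 5 of the 7 members, 7 windows in all, with none used here for PLAT or THBD. The 250 bases before the annotated start are printed 5′ to 3′ on the strand of the gene for the members the results turn on. F3 lies at chr1:94541760-94542009 on the minus strand and PLAUR at chr19:43670170-43670419 on the minus strand. PLAU lies at chr10:73910882-73911131 on the plus strand, the second of its 2 windows, and SERPINB2 at chr18:63887455-63887704 on the plus strand. Capitals mark TGACTCA (the AP-1 motif) or its other strand TGAGTCA, the variant TGAATCA or TGATTCA, and TAAT or ATTA, the core of many homeodomain sites.
F3: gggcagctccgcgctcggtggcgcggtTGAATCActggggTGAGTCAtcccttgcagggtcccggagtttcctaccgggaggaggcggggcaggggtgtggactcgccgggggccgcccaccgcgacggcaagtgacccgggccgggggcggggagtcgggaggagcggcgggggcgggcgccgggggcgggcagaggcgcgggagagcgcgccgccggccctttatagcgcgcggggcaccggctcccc
PLAUR: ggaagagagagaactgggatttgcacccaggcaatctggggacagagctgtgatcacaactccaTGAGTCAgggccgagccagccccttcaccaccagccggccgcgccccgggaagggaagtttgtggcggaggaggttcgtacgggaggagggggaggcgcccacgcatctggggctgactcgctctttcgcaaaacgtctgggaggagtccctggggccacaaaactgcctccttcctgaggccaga
PLAU: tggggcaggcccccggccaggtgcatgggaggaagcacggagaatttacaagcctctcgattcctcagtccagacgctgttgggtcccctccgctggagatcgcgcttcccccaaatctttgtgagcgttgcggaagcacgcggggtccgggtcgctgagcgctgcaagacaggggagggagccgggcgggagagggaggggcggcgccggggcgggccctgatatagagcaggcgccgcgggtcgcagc
SERPINB2: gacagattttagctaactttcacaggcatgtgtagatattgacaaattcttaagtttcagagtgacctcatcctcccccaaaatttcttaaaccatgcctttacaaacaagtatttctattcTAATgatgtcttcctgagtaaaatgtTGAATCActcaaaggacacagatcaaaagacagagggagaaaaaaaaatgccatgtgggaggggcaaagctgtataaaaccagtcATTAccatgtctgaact

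The palindrome TAATTA was in 0 of the 7 windows, each with 250 bases before and 50 after the start, and in 4.84% of the 35116 promoter windows of the same length. TGACTCA or TGAGTCA was found at -210 in F3 and at -186 in PLAUR, counted from the annotated start, and 4.95% of all windows held it. TGAATCA or its other strand was at -223 in F3 and at -102 in SERPINB2, against 2.98% of all windows. TAAT, which is also part of TAATTA, was at -128 and -17 in SERPINB2 and at -125 in the other PLAU window, but 50.2% of all windows held it. GGAA or TTCC, the core of ETS sites, was in each of the 7 windows and in 95.5% of all windows. TAAT and TGAATCA were searched for after the values were seen. These matches are letters in a window and were not tested for binding.

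When MEOX2 was lowered in SNB19 cells, the uPA receptor, uPA and tPA fell together, and tissue factor rose. In bulk RNA, fewer cells of a type and less RNA per cell cannot be told apart. Of the 7 members, 5 had enough counts to be tested, 3 were lower (PLAUR, PLAU and PLAT) and 1 was higher (F3) at an edgeR adjusted p under 0.05. Among all 15525 genes tested, 27.4% were higher and 28.5% were lower, so a call alone does not set these genes apart.

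PLAU was at 64.4, 68.5 and 68.9 FPKM in NC cells and at 47.2, 46.6 and 43.7 FPKM in siMEOX2 cells. The 2 groups did not overlap. PLAU decreased by 35.3% (log2 -0.63 ± 0.054, SE, edgeR adjusted p = 4.36e-09). PLAT was at 10.4, 9.81 and 10.3 FPKM in NC cells and at 7.91, 7.25 and 7.34 FPKM in siMEOX2 cells, again without overlap. It fell by 0.52 on the log2 scale (SE 0.0653, edgeR adjusted p = 1.1e-06). Within each library PLAU stood 5.95 to 6.98 times above PLAT per length, and the mean log2 ratio differed between the groups by -0.11 (exact permutation test, two-sided, p = 0.2, adjusted p = 0.5).

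The receptor PLAUR had the smallest adjusted p of the family. It was at 37.4, 39.2 and 37.6 FPKM in NC cells and at 25.4, 26.6 and 24.3 FPKM in siMEOX2 cells. All 3 siMEOX2 libraries were below all 3 controls. PLAUR decreased by 36.6% (log2 -0.66 ± 0.0542, SE, edgeR adjusted p = 2.36e-09).

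Of the inhibitors, SERPINE2 did not pass the test in SNB19 cells, and SERPINB2 could not be tested. SERPINE2 was at 8.11, 8.49 and 8.75 FPKM in NC cells and at 7.96, 9.28 and 8.68 FPKM in siMEOX2 cells, and the groups overlapped. Its log2 fold change was -0.04 ± 0.0639 (SE, edgeR adjusted p = 0.579), and its sign turned to 0.03 with library totals in place of TMM. SERPINB2 had 0, 0 and 0 counts in NC cells and 1, 0 and 1 counts in siMEOX2 cells, too few to test, and a count of 0 allows up to 3 counts per library. The PLAU to SERPINE2 ratio of FPKM was 7.94, 8.07 and 7.87 in NC cells and 5.92, 5.03 and 5.03 in siMEOX2 cells. These ratios did not overlap, with a log2 difference of -0.58 (exact permutation test, two-sided, p = 0.1, the smallest that 3 against 3 can give, adjusted p = 0.5). Over 3 ratios and both lines 6 such comparisons were made, and p-values were adjusted over them.

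Tissue factor moved the other way. F3 was at 51.5, 50.3 and 49.5 FPKM in NC cells and at 65.0, 75.1 and 70.9 FPKM in siMEOX2 cells, and every siMEOX2 library was above every control. The log2 fold change was 0.40 ± 0.0549 (SE, edgeR adjusted p = 2.8e-06), an increase of 32.3%. In the fit of all 10 libraries the call was lost (adjusted p = 0.0809, range over 16 alternatives 2.93e-11 to 0.0809). TFPI, the inhibitor of the tissue factor complex, also rose by 0.44 ± 0.11 on the log2 scale (edgeR adjusted p = 0.00185), and the F3 to TFPI ratio of FPKM was 41.6, 46.4 and 44.1 in NC cells and 35.8, 52.0 and 42.6 in siMEOX2 cells, with overlap (log2 difference -0.04, exact permutation test, two-sided, p = 0.9, adjusted p = 1). THBD, the receptor on the anticoagulant side, had 0, 0 and 0 counts in NC cells and 2, 0 and 4 counts in siMEOX2 cells and was not tested.

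**Figure D1:**
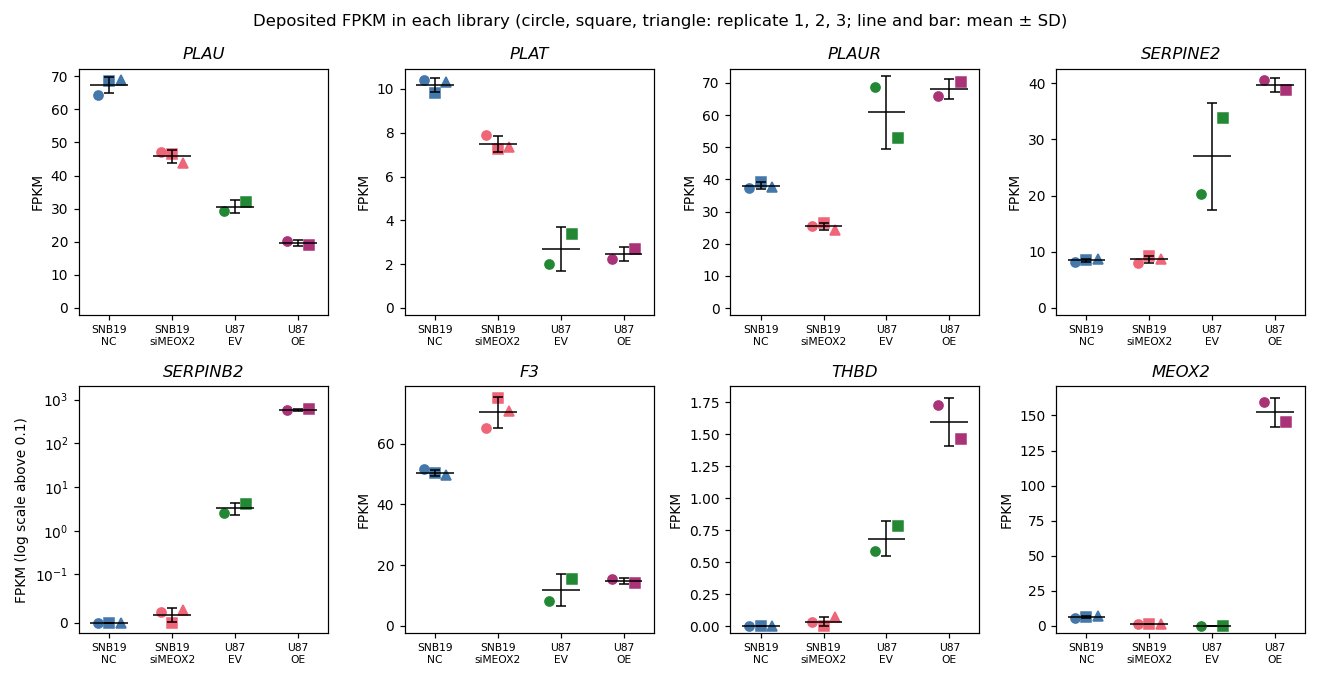
FPKM of the 7 members and of MEOX2 (y axis, linear except for SERPINB2, which is on a log scale above 0.1) in the 10 libraries by group (x axis), with symbols for replicates and a line and bar for the mean ± SD. PLAU, PLAT and PLAUR sit lower in the 3 siMEOX2 libraries than in the 3 NC libraries, F3 sits higher, and SERPINB2 stands at 568 and 599 FPKM in OE cells against 2.59 and 4.06 FPKM in EV cells.

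Markers of other cell types and of the glial lineage moved with the knockdown. The summed level of the 8 glioma and astrocyte markers was 1280 to 1290 CPM in NC cells and 629 to 652 CPM in siMEOX2 cells. VIM and CD44 made up most of it. Of 7 tested, 6 were lower and 1 was higher, beside 28.5% and 27.4% of all genes. The higher one was OLIG2, with 53 to 65 counts in NC and 72 to 97 counts in siMEOX2 cells. The summed level of the 5 endothelial markers was 40.2 to 45 CPM in NC cells and 7.86 to 10.6 CPM in siMEOX2 cells, led by PECAM1 with 437 to 553 counts against 65 to 104 counts. The 4 myeloid markers in the table summed to 21.6 to 25.4 CPM and then 8.70 to 10.8 CPM, with CSF1R making up most of them and PTPRC at 0 to 4 counts. Their part in the changes of the members was not tested.

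Further genes of the plasminogen system, 24 in number, held 15 that were tested in SNB19 cells, of which 3 were higher, 5 were lower and 7 did not pass. Their median log2 fold change was 0.12, against 0.01 for all genes tested. S100A10 and ANXA2 encode the subunits of annexin A2 heterotetramer, a plasminogen receptor at the cell surface, and both fell. S100A10 was at 170, 165 and 178 FPKM in NC cells and at 78.2, 63.2 and 62.6 FPKM in siMEOX2 cells (log2 -1.40 ± 0.0713, edgeR adjusted p = 1.35e-12). ANXA2 was at 306, 311 and 311 FPKM in NC cells and at 157, 142 and 136 FPKM in siMEOX2 cells (log2 -1.17 ± 0.0519, edgeR adjusted p = 1.62e-13). SERPINI1, which encodes the tPA inhibitor neuroserpin, rose by 1.27 ± 0.351 from a low level of 9 to 22 counts (edgeR adjusted p = 0.00441).

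Of 26 further genes of coagulation and thrombin signalling, 12 were tested in SNB19 cells, with 4 higher, 4 lower and 4 that did not pass (median log2 0.07). F2RL2, which encodes the thrombin receptor PAR3, was at 1.99 to 2.72 FPKM in NC cells and at 4.94 to 5.05 FPKM in siMEOX2 cells (log2 1.03 ± 0.122, edgeR adjusted p = 4.46e-07). VWF, the platelet-binding protein of endothelium, fell by 0.98 on the log2 scale from 53 to 91 counts to 30 to 42 counts (edgeR adjusted p = 0.00112). GGCX, the carboxylase of vitamin K dependent clotting factors, fell from 5.54 to 5.91 FPKM down to 3.72 to 4.06 FPKM (log2 -0.63 ± 0.0688, edgeR adjusted p = 1.43e-07).

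When MEOX2 was raised in U87 cells, SERPINB2 was a low transcript in the controls and among the most abundant in the MEOX2 cells. It had 115 and 157 counts in EV cells and 19573 and 24106 counts in OE cells, or 2.59 and 4.06 FPKM against 568 and 599 FPKM. Within a library it ranked 7755 and 7665 by FPKM in EV cells, and 36 and 37 in OE cells, where it took 0.156% and 0.165% of all counts. The fitted difference was 151-fold (log2 7.24 ± 0.403, SE), and it was the largest of the family in either line. The edgeR adjusted p was 0.123, the smallest any gene reached, so no gene was called in this comparison.

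The count of 0 members called stood beside 0.0% of the 14180 genes tested. At an unadjusted p under 0.05 there were 2643 genes (18.6%) and 3 members, SERPINB2, PLAU and THBD, and SERPINB2 was 2nd by p and 9th by log2 fold change among all genes. DESeq2 called 991 genes (6.99%) and 1 member, SERPINB2, at an adjusted p of 1.85e-54. Over 17 alternatives its log2 fold change lay between 7.10 and 7.46, its adjusted p was 0.126 at most, and it passed the threshold in 14. The fit of all 10 libraries called 4538 genes (26.2%) and 2 members, SERPINB2 and PLAU. At the rule the study states, an unadjusted p under 0.05 and a log2 fold change beyond 1, there were 15.2% of genes and 1 member, SERPINB2. Without EV replicate 1 the U87 fit called 47.4% of genes and 5 members, and without EV replicate 2 it called 71.2% and 6 members. In these last fits the lone EV library is assumed to vary like the OE pair, which alone sets the spread.

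PLAU values were lower in OE cells, the same sign as in the knockdown of the other line. It was at 29.1 and 32.0 FPKM in EV cells and at 20.2 and 19.1 FPKM in OE cells, and the groups did not overlap. The log2 fold change was -0.89 ± 0.273 (SE, edgeR adjusted p = 0.225), and it was -0.72 without EV replicate 1 and -1.01 without EV replicate 2. In the fit of all 10 libraries it was called (adjusted p = 0.00289, range over 17 alternatives 1.76e-18 to 1). PLAT was at 1.99 and 3.40 FPKM in EV cells and at 2.23 and 2.70 FPKM in OE cells, with both OE values between the EV values. In CPM with TMM factors, which correct for composition where FPKM does not, it was at 19.0 and 23.6 in EV cells and at 15.3 and 18.8 in OE cells, and the groups did not overlap. Its log2 fold change was -0.33 ± 0.293 (edgeR adjusted p = 0.536). It was -0.47 ± 0.153 without EV replicate 1 (adjusted p = 0.00647), -0.13 ± 0.16 without EV replicate 2 (adjusted p = 0.473), and the adjusted p ran from 0.00647 to 1 over 17 alternatives. The log2 ratio of PLAU to PLAT differed by -0.55 (exact permutation test, two-sided, p = 0.333, adjusted p = 0.5).

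SERPINE2 was at 20.3 and 33.8 FPKM in EV cells and at 40.6 and 38.9 FPKM in OE cells. The groups did not overlap. The log2 fold change was 0.35 ± 0.286 (edgeR adjusted p = 0.502), and it was 0.22 without EV replicate 1 and 0.53 without EV replicate 2. Within U87 libraries the PLAU to SERPINE2 ratio of FPKM was 1.44 and 0.947 in EV cells and 0.497 and 0.491 in OE cells. The log2 difference was -1.24 (exact permutation test, two-sided, p = 0.333, the smallest that 2 against 2 can give, adjusted p = 0.5). A ratio within a library does not depend on how libraries are scaled.

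PLAUR and F3 had no stable direction in U87 cells, since each depended on the EV library used. PLAUR was at 68.8 and 52.8 FPKM in EV cells and at 65.9 and 70.2 FPKM in OE cells, and the groups overlapped. Its log2 fold change was -0.13 ± 0.391 (edgeR adjusted p = 0.853), but 0.35 without EV replicate 1, -0.46 without EV replicate 2 and 0.16 with library totals. F3 was at 8.16 and 15.6 FPKM in EV cells and at 15.4 and 14.1 FPKM in OE cells, with overlap. Its log2 fold change was 0.12 ± 0.289 (edgeR adjusted p = 0.812), -0.09 without EV replicate 1 and 0.41 without EV replicate 2. The F3 to TFPI ratio of FPKM was 1.6 and 3.05 in EV cells and 2.66 and 2.54 in OE cells (log2 difference 0.23, exact permutation test, two-sided, p = 1, adjusted p = 1).

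THBD was a low transcript in U87 cells, with 39 and 45 counts in EV cells and 89 and 88 counts in OE cells. This was 0.587 and 0.779 FPKM against 1.73 and 1.46 FPKM, and the groups did not overlap. The log2 fold change was 0.99 ± 0.339 (edgeR adjusted p = 0.246), and it was 1.02 and 0.99 without EV replicate 1 and 2. The 5 endothelial markers summed to 6.37 to 9.60 CPM in EV cells and 4.30 to 5.27 CPM in OE cells, with PECAM1 at 85 and 75 counts against 27 and 16 counts. ERG was at 5 and 18 counts in EV cells and 24 and 19 counts in OE cells, TEK at 6 and 15 against 13 and 22 counts, and the median log2 fold change of the 3 tested was 0.66. The 4 myeloid markers summed to 12.7 to 17.1 CPM in EV cells and 2.71 to 3.96 CPM in OE cells, and only 1 of them was tested. CSF1R made up most of this sum, with 201 and 234 counts in EV and 31 and 42 counts in OE cells. ITGAM went the other way, from 0 and 0 counts in EV to 2 and 11 counts in OE cells. SERPINB2, a gene that myeloid cells can express, was higher in OE cells. PTPRC was at 0 to 1 counts in the 4 U87 libraries. The 8 glioma and astrocyte markers summed to 2040 to 4160 CPM in EV cells and 1310 to 1340 CPM in OE cells. VIM and CD44 made up most of these sums, with VIM at 57276 and 17449 counts in EV and 7577 and 8966 counts in OE cells. OLIG2 went the other way, from 87 and 66 counts in EV to 273 and 291 counts in OE cells. The part of these markers in the values was not tested.

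**Figure D2:**
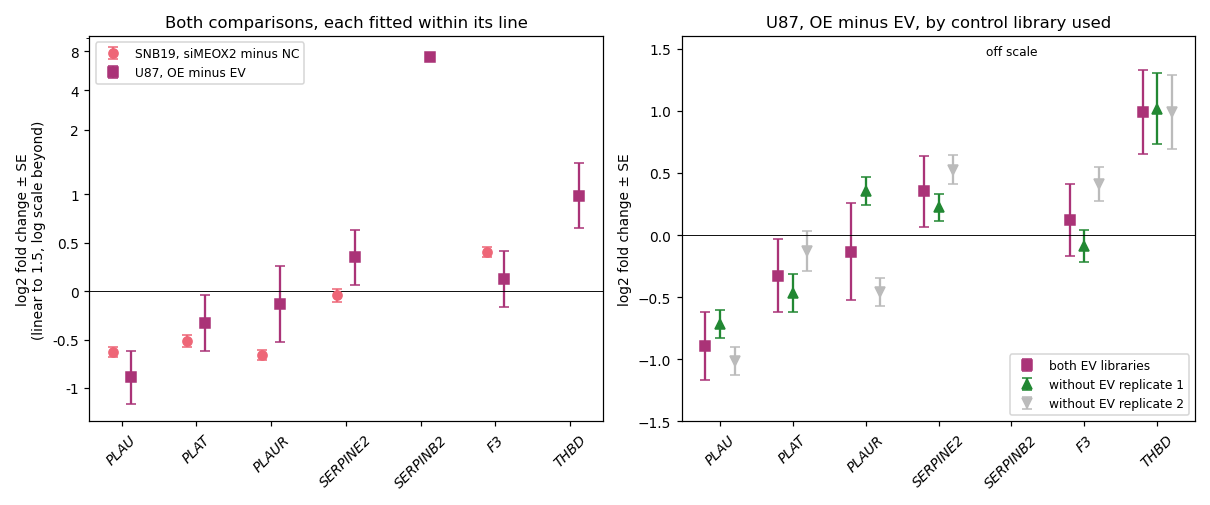
Log2 fold change ± SE (y axis) of each member (x axis), on the left for both comparisons, linear to 1.5 and on a log scale beyond, and on the right for U87 with both EV libraries or with 1 left out. PLAUR and F3 lie on either side of 0 depending on the EV library, PLAU stays below and THBD above 0, SERPINB2 at 7.24 is off the right-hand scale, and SERPINB2 and THBD were not tested in SNB19.

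No listed gene of the wider pathways was called in U87 cells, where 11 of the plasminogen list and 14 of the coagulation list were tested. The medians were -0.72 and -0.16 on the log2 scale, against -0.06 for all genes. Without EV replicate 1 there were 3 higher and 5 lower of 12 in the plasminogen list and 1 higher and 6 lower of 16 in the coagulation list. Without EV replicate 2 there were 3 higher and 8 lower of 11, and 3 higher and 3 lower of 14. S100A10 shows how far the EV libraries differed, with 634 and 243 FPKM in EV cells and 139 and 158 FPKM in OE cells. Its log2 fold change was -1.93, and was -0.72 without EV replicate 1 and -2.54 without EV replicate 2. TFPI2, a Kunitz-type inhibitor of plasmin and of the tissue factor complex, was singled out after its values were seen. It had 6873 and 7168 counts in EV cells and 35944 and 44438 counts in OE cells, a log2 fold change of 2.41 ± 0.348 (edgeR adjusted p = 0.136), and 0 to 2 counts in every SNB19 library. The TFPI2 log2 fold change was 2.52 without EV replicate 1 and 2.35 without EV replicate 2.

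SERPINB2 lies in a cluster of related serpin genes on chromosome 18 (63871692 to 63903890 on GRCh38, plus strand, GENCODE 29), and its neighbours within 500 kb were described after the values were seen. SERPINB7 was at a mean of 2.50 FPKM in EV cells and 7.23 FPKM in OE cells (log2 1.33, edgeR adjusted p = 0.177). SERPINB4 was at 1.30 and 4.32 FPKM (log2 1.43, edgeR adjusted p = 0.225), and SERPINB8 at 7.44 and 12.2 FPKM (log2 0.50, edgeR adjusted p = 0.336). HMSD, which begins 78 kb beyond the GENCODE start of SERPINB2, was at 2.72 and 1.93 FPKM (log2 -0.81). The RefSeq start whose window is printed above lies further in, just after 63887704. VPS4B, a neighbour that is not a serpin gene, was at 8.36 FPKM in EV and 13.1 FPKM in OE cells (log2 0.44, edgeR adjusted p = 0.386). Without EV replicate 1 and without EV replicate 2, the log2 fold change was 1.17 and 1.56 for SERPINB7 and 1.96 and 1.07 for SERPINB4. It was 0.42 and 0.62 for SERPINB8 and -0.11 and -1.24 for HMSD. SERPINB5 and SERPINB12 had 0 counts in all U87 libraries. SERPINB10 overlaps SERPINB2 on the same strand but held 7 counts in the whole table.

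**Figure D3:**
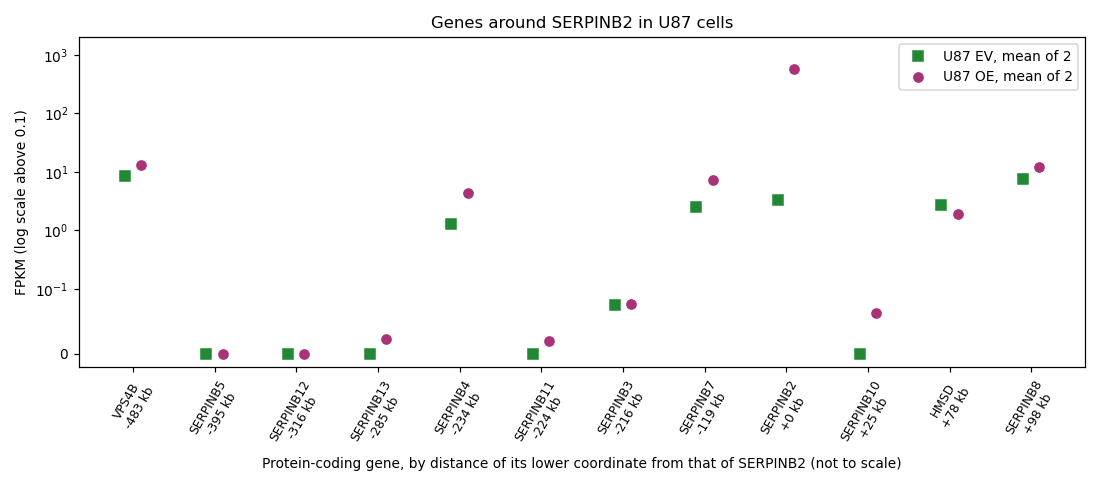
Mean FPKM (y axis, log scale above 0.1) in the 2 EV and the 2 OE libraries of U87 for SERPINB2 and the protein-coding genes within 500 kb, ordered along chromosome 18 (x axis, distance not to scale). SERPINB2 is at 3.33 FPKM in EV and 584 FPKM in OE cells, while no neighbour exceeds 13.1 FPKM in either group.

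The control cells of the 2 lines held different sets of these genes. All 7 members differed between NC and EV cells in the fit of all 10 libraries, 3 higher in SNB19 and 4 higher in U87, beside 28.1% and 28.8% of 17312 genes. The SNB19 controls had more F3, with a log2 of SNB19 over U87 of 1.77 ± 0.16 (SE, edgeR adjusted p = 1.92e-05). They also had more PLAT (log2 1.59 ± 0.153, edgeR adjusted p = 2.9e-05) and more PLAU (log2 0.76 ± 0.132, edgeR adjusted p = 0.00114). U87 controls had more SERPINE2 (log2 -2.01 ± 0.126, edgeR adjusted p = 2.05e-06) and more PLAUR (log2 -1.10 ± 0.206, edgeR adjusted p = 0.00171). The size of the PLAUR difference depended on the EV library (-0.63 without replicate 1 and -1.48 without replicate 2) and was -0.68 with library totals, and PLAU was then at 1.14. SERPINB2 was at least 46.2-fold and THBD at least 14.2-fold higher in EV than in NC cells, where both were at 0 counts in every library, against the floor of 3 counts per library. Cell line, transfection and selection differ together here and cannot be told apart.

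By FPKM the order of groups for PLAU was NC, siMEOX2, EV and OE (means 67.3, 45.8, 30.6 and 19.6), with no overlap between neighbours, but in CPM with TMM factors siMEOX2 and EV overlapped. For PLAT the order was the same, and EV and OE overlapped in FPKM but not in CPM with TMM factors. PLAUR ran from OE and EV (68.1 and 60.8), which overlapped, to NC (38.0) and siMEOX2 (25.4), which did not. SERPINE2 ran from OE (39.8) and EV (27.0) to siMEOX2 and NC (8.64 and 8.45), the last of which overlapped. In CPM with TMM factors these overlapping neighbours changed places, with PLAUR at means of 344 in EV and 317 in OE cells and SERPINE2 at 71.3 in NC and 68.5 in siMEOX2 cells, and still overlapped. F3 ran from siMEOX2 (70.3) and NC (50.4) to OE and EV (14.8 and 11.9), the last of which overlapped. In the baseline comparison 11 of the 15 tested genes of the plasminogen list were called, 5 higher and 6 lower in SNB19. SERPINA5 (protein C inhibitor) had 316 to 378 counts in NC cells and none in EV cells, SORL1 (a sorting receptor that binds uPA complexes) 737 to 1050 against 0 to 2 counts, and SERPINF2 (alpha-2-antiplasmin) 43 to 82 against 1 to 2 counts. Of the coagulation list 12 of 17 were called, 4 higher and 8 lower in SNB19, with F2RL1, which encodes the protease-activated receptor PAR2, at 0 to 3 counts in NC cells and 142 to 242 counts in EV cells.

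The difference between the effects in the lines, that of the knockdown minus that of the overexpression, was tested in the fit of all 10 libraries. None of the 7 members was called by edgeR, while 15.7% of all genes were. At an unadjusted p under 0.05 there were 32.7% of genes and 1 member, SERPINE2 (-0.42 ± 0.179, edgeR adjusted p = 0.139), and DESeq2 called 23.4% of genes and 1 member, SERPINB2, whose SNB19 counts were 0 to 1. For PLAU the knockdown and the overexpression effects differed by 0.24 ± 0.183 (edgeR adjusted p = 0.401). It passed without EV replicate 2 (0.37, adjusted p = 0.00543), and the adjusted p ran from 0.00543 to 0.896 over 15 alternatives. Leaving out either EV library brought 3 members past the threshold, beside 35.5% of all genes without replicate 1 and 54.6% without replicate 2. These were PLAUR (-1.07), SERPINE2 (-0.33) and F3 (0.44) without replicate 1, and PLAU (0.37), PLAT (-0.41) and SERPINE2 (-0.59) without replicate 2.

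For the members other than PLAU the 2 genes most like each were found by Pearson r of log2 CPM over the 10 libraries, with each line centred on its own mean, as a description over libraries that share treatments. They were MAGED2 and ZYX for PLAUR (r = 0.994 and 0.993) and RAB11FIP1 and PSTPIP1 for PLAT (0.987 and 0.985). For SERPINB2 they were RSPO3 and LINC01920 (0.996 and 0.995), and for F3 DCAF16 and CSNK2A1 (0.983 and 0.982). SERPINE2 was most like AC009053.1 and MMP24 (0.989 and 0.983), and THBD AC090061.1 and AC007389.1 (0.939 and 0.938). All these genes were picked as the highest of 17312. SERPINB2 was at 0 to 1 counts and THBD at 0 to 4 counts in the SNB19 libraries, so their r values rest mainly on the U87 libraries.

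The members lie on different chromosomes of GRCh38 (GENCODE 29). PLAU is at chromosome 10, 73909177 to 73917497 on the plus strand. On the minus strands, PLAUR is at chromosome 19, 43646095 to 43670547, PLAT at chromosome 8, 42175233 to 42207724, and SERPINE2 at chromosome 2, 223975112 to 224039319. F3 is at chromosome 1, 94529225 to 94541800, and THBD at chromosome 20, 23045633 to 23049741, both on the minus strand. PLAU overlaps C10orf55 on the opposite strand, which held 88 counts in the whole table, and without a stated strand setting reads of the pair cannot be told apart.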

How the data were processed

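Poly-A RNA libraries of 10 samples (NEBNext Ultra kit, Illumina HiSeq 4000, paired-end) were aligned with HISAT2 to GRCh38 and counted with HTSeq 0.11.2, per the submitters' processing notes, which also list DESeq2 1.26.0. The annotation release, the strand setting and the FPKM tool are not given in the sources used here. The authors deposited 1 table of gene counts, not normalised, and of FPKM values. The deposited FPKM equals the count divided by a fixed gene length and by the table total of the library (largest relative deviation 2.9e-07 over 10435 genes), so FPKM carries no correction for composition. No columns were left unused.

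Groups came from the sample titles. In U87 the treatment fields number the gene upwards (MEOX2 and MEOX3 for the EV libraries, MEOX4 and MEOX5 for the OE libraries), and the bracket in the title of OE replicate 1 names replicate 2. The design text names MEOX2 throughout. Counts of all genes were fitted with edgeR 4.0.16 (R 4.3.3; TMM, filterByExpr, quasi-likelihood F test) within each line, and all 10 libraries in 1 fit gave the baseline and the difference of effects. Benjamini-Hochberg adjustment covered all genes tested, with a threshold of 0.05. SE is the log2 fold change divided by the square root of F. Alternatives used DESeq2 1.42.0, limma 3.58.1 on log2(FPKM + 1) or log2(FPKM + 0.1) for genes of mean FPKM at least 0.5, other scalings and filters, a replicate block and leaving out libraries. Ratios were tested with SciPy 1.17.1.

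The steps were tested on simulated data. Knockdown fits of 15527 genes found 99% and 100% of genes changed by 1 and 2 on the log2 scale. Overexpression fits of 14096 genes found 84% and 100%. Every gene and library was simulated with the same relative spread, without the gap between the EV libraries (r = 0.944). These shares therefore do not give the power of the real U87 comparison. Counts and floors of 3 counts cover counting error only. The rule for named genes was all 7 members, MEOX2 once, the 3 called genes of each list with the largest change per comparison, and 2 genes most like each member, which for PLAU are not reported here. The members and lists were chosen with earlier results of these data known. The 4 marker lists (glioma and astrocyte, endothelial, myeloid, epithelial) were summed in CPM, and the 3 epithelial markers summed to 7.28 to 9.12 CPM in NC, 5.99 to 6.25 in siMEOX2, 1.56 to 2.66 in EV and 0.399 to 1.02 in OE cells. In SNB19 the sum hides opposite moves. CDH1 had 12 to 24 counts in NC and 63 to 67 counts in siMEOX2 cells, and KRT19 89 to 112 and 12 to 16 counts. EPCAM had 6 to 15 and 9 to 12 counts. TYROBP of the myeloid list was not analysed here.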

Additional observations from a re-analysis of the deposited data

Results flagged for a closer look

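Among the pathway genes named by rule, 3 were picked out because the knockdown effect in SNB19 and the overexpression effect in U87 differed by edgeR's test of that difference. For F2RL2 the difference was 2.40 ± 0.654 (SE, edgeR adjusted p = 0.038), with 106 to 128 counts in NC, 244 to 266 in siMEOX2, 4 and 14 in EV and 5 and 2 in OE cells. For SERPINI1 it was 2.67 ± 0.675 (edgeR adjusted p = 0.0293), with 9 to 22 counts in NC, 26 to 46 in siMEOX2, 55 and 29 in EV and 15 and 19 in OE cells. For TFPI2 it was -5.49 ± 1.25 (edgeR adjusted p = 0.0278), while its effect within U87 was 2.41, so U87 alone does not account for the value. In SNB19 cells TFPI2 had 2, 0 and 1 counts in NC and 0, 0 and 0 counts in siMEOX2 libraries. The rest of the value comes from these counts near 0, so its size depends on the prior count. Without EV replicate 1 and without EV replicate 2 the difference was 2.90 and 1.39 for F2RL2 (edgeR adjusted p = 0.000961 and 0.244), 1.94 and 3.13 for SERPINI1 (0.0144 and 1.66e-05) and -5.66 and -5.43 for TFPI2 (0.00425 and 0.00281), so F2RL2 did not pass without EV replicate 2.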

How the results depend on the processing

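In SNB19 the 3 decreases (PLAU, PLAT, PLAUR) held in 15 of 16 alternatives, all but the study's rule, and F3 in 14, lost there and in the fit of all 10 libraries. That rule left 0 members and 1669 genes, and the fit of all 10 libraries left 2725 genes. SERPINE2 reversed to 0.031 with library totals, to 0.027, 0.029 and 0.027 in limma (pseudocount 1, pseudocount 0.1, no filter) and to 0.005 without siMEOX2 replicate 1. Leaving out 1 library gave 7662 to 9102 genes and 4 members in each case.

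In U87 the calls were 991 genes and 1 member with DESeq2, 1863 and 1 with no filter, 4538 and 2 with all 10 libraries, 5 and 1 in limma (pseudocounts 1 and 0.1), 2 genes in limma with no filter, and 2160 and 1 by the study's rule. Leaving out 1 library gave 38 to 10616 genes and 1 to 6 members, with 7052 genes without EV replicate 1. With all 10 libraries, chosen after seeing the data, there were 7117 genes and 6 members without EV replicate 1 and 10929 and 6 without EV replicate 2. PLAUR reversed to 0.163 with library totals, to 0.171, 0.174 and 0.171 in limma, to 0.354 without EV replicate 1 (-0.459 without EV replicate 2) and to 0.402 without EV replicate 1 in the fit of all 10 libraries. F3 reversed to -0.09 and -0.043 without EV replicate 1 in the same fits, against 0.409 without EV replicate 2 within U87. Why the EV libraries differ was not tested. Simulated data with the same sample numbers did give calls, but they held no such difference between the EV libraries.

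Same-numbered libraries did not pair in SNB19 (r of deviations 0.043, 0.003 and 0.059, and not every sample was best matched by its own number). In U87 r was -0.162. With the replicate block the knockdown gave 8601 genes and 4 members, the overexpression 468 and 1, the baseline 8438 and 7, and the difference 698 and 0. The block with U87 numbers crossed, chosen after seeing the data, gave 1152 genes and 1 member.

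Leaving out 1 library gave 8219 to 13539 genes and 7 members in the baseline, and 1018 to 10034 genes and 0 to 3 members for the difference, where F3 reversed to -0.023 without EV replicate 2 and was 0.436 without EV replicate 1. DESeq2 called 1 member for the difference (SERPINB2), beside 23.4% of all genes. Library totals also called 1 member (PLAUR, -0.745), but the share of all genes is not given here, so this call cannot be weighed. Library totals moved the median of all genes from -0.06 to 0.17 in U87 and from 0.03 to 0.37 in the baseline, and the share of calls that were higher from 49.4% to 64.5% in the baseline and from 49.1% to 58.4% in the knockdown. Ratios of counts gave the same differences as ratios of FPKM. Depth limits SERPINB2 and THBD in SNB19, where changes below a few counts were not detectable.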
